A study of Mus musculus with 72 samples.

Results

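The transcripts of 10 neutrophil granule proteins were followed in the blood of irradiated mice: Mpo, Elane, Prtn3, Ctsg, Ltf, Camp, Ngp, Lcn2, Mmp8 and Mmp9. They were taken by name from the gene column of 72 one-colour Agilent mouse arrays, on which 31131 genes were named, and each gene was read from its brightest probe. Each array held RNA from the blood of 1 male C57BL/6 mouse, irradiated at 8 to 10 weeks of age, drawn by cardiac puncture and depleted of globin mRNA. The 13 groups were sham-irradiated controls at days 1, 3 and 7 (5, 5 and 6 mice), 0.25 Gy neutrons at days 1, 3 and 7 (6, 6 and 5 mice), 1 Gy neutrons at days 1 and 7 (6 mice each), 1 Gy of x-rays at days 1, 3 and 7 (6, 5 and 5 mice) and 4 Gy of x-rays at days 1 and 7 (5 and 6 mice). A level is the log2 intensity of the probe relative to the median detected probe of the same array, and it can be compared between mice but not between probes. A difference was called when p was below 0.001 and the Benjamini-Hochberg false discovery rate was below 0.05 in limma, over the 10863 genes that passed the filters. Of the 10 genes, 7 passed: Elane, Ctsg, Ltf, Camp, Lcn2, Mmp8 and Mmp9. Mpo, Prtn3 and Ngp were well above background on 47, 52 and 49 of the 72 arrays and failed the detection filter, with 37.5%, 30.4% and 33.9% of their spots on day 1 and 7 arrays not detected against an upper limit of 25%. Ltf, with 23.2%, lay just inside that limit. The values of the 3 genes that failed are given from a fit of all 31131 genes. The samples were whole blood, so that more cells of a type and more RNA per cell cannot be told apart.

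Neutrophils fill their granules in the bone marrow, in waves that follow maturation. Promyelocytes make the primary or azurophil granules, which hold myeloperoxidase (Mpo), an enzyme that makes hypochlorous acid, and the serine proteases neutrophil elastase (Elane), proteinase 3 (Prtn3) and cathepsin G (Ctsg). Myelocytes and metamyelocytes make the secondary or specific granules, with lactoferrin (Ltf), which binds iron, the cathelicidin antimicrobial peptide (Camp), the cathelicidin-related neutrophilic granule protein (Ngp), lipocalin 2 (Lcn2), which captures bacterial siderophores, and the collagenase Mmp8. The gelatinase Mmp9 is packed last, in tertiary granules. A mature neutrophil in blood keeps the proteins but has switched off most of these genes, so that their mRNA in blood is known mainly from younger cells. Lcn2 differs in that many tissues, the liver among them, also make it in inflammation.

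Several of these genes are neighbours. In GRCm38.p6, Prtn3 (chr10:79879667-79883174) and Elane (chr10:79886312-79888216) lie 3138 bases apart on chromosome 10, while Camp (chr9:109847377-109849456), Ngp (chr9:110419808-110423012) and Ltf (chr9:111019292-111042766) lie within 1.195 Mb on chromosome 9. The RefSeq promoter windows of these 5 genes, 250 bases up to the start, are shown. Camp, Ltf and Ngp were all higher at day 7 after 1 Gy neutrons, while the probes of the chromosome 10 neighbours did not follow each other. A doubt about the Elane probe is given with its values. The rise was not particular to chromosome 9, since Lcn2, on chromosome 2, was also called higher there and Mmp8, on chromosome 9, was not called. Capitals mark AGGAAGT, a word that PU.1 can bind, and TTGCNNAA, a word of the C/EBP family, on either strand. The windows are Elane (chr10:79886062-79886311, plus strand), Prtn3 (chr10:79879417-79879666, plus), Ltf (chr9:111019042-111019291, plus), Camp (chr9:109849457-109849706, minus) and Ngp (chr9:110419558-110419807, plus).
Elane: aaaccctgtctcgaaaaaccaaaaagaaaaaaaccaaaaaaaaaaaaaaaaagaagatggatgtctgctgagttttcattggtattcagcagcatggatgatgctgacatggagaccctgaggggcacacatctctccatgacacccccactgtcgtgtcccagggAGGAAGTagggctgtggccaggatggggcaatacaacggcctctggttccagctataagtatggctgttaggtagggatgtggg
Prtn3: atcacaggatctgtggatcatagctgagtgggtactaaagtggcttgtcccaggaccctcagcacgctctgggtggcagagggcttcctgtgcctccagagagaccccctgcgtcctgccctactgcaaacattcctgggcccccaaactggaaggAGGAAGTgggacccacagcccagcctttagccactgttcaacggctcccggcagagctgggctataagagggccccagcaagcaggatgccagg
Ltf: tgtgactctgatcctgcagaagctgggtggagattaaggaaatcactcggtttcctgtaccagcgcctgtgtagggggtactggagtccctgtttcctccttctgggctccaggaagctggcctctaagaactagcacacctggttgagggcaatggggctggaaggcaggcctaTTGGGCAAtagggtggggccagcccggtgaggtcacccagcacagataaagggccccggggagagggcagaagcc
Camp: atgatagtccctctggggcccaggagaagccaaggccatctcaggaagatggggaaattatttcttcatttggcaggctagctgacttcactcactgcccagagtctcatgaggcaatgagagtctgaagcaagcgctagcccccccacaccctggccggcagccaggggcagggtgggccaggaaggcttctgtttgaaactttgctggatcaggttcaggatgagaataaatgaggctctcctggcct
Ngp: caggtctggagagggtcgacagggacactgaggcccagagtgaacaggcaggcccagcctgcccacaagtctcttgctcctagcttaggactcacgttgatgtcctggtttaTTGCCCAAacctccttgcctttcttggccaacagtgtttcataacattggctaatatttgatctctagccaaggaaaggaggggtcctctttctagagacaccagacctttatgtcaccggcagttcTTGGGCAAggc
AGGAAGT stood in all 4 windows of the primary granule genes and in 1 of the 5 windows of secondary granule genes, that of Mmp8, against 7.69% of 32851 promoter windows of the same length. TTGCNNAA stood in none of the 4 primary windows and in 4 of the 5 secondary ones, those of Ltf, Ngp, Lcn2 and Mmp8, against 9.56% of all windows, and the Ngp window held it at 2 places. TGTGGT, a RUNX word found in 14.0% of windows, stood before Ctsg alone, and AACGG, a MYB word found in 14.5%, before Elane and Prtn3. The 2 sets of letters do not overlap in any window shown. Windows were matched for 9 of the 10 genes, all but Mmp9.

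In 5 mice the secondary granule transcripts were far above those of the other mice of the same group. They were control mouse 4 of day 1, control mouse 1 of day 3, mouse 3 of 0.25 Gy neutrons at day 3, mouse 4 of 1 Gy neutrons at day 1 and mouse 4 of 4 Gy of x-rays at day 1. These are 5 groups, irradiated and not, on 5 slides and 4 scan dates. They were chosen after their values were seen, as the arrays with Camp at least 3 log2 units (8-fold) above the median of the other mice of the group, so their excess is a description. In these 5, Ltf stood 6.12 to 8.68 log2 units above that median, Ngp 4.95 to 8.22 and Camp 3.38 to 7.00. Among the other 39 arrays of days 1 and 3, the highest levels were -2.67 for Ltf, -1.90 for Ngp and -0.26 for Camp, below the lowest of the 5 for each gene (1.04, 0.37 and 2.48). Mpo, Prtn3, Ctsg, Mmp8 and Mmp9 were also above the median of the other mice in 5 of 5, Lcn2 in 4 of 5 and Elane in 3 of 5. A list of 22 other granule genes had a median excess of 0.76, a list of 17 mature neutrophil markers 0.93 and 7 monocyte genes 0.89. Between 0.43 and 0.56 were the lists of eosinophil and basophil, red cell, platelet, blood progenitor and NK cell genes, whereas T cell genes stood at -0.15, 8 B cell genes at -0.26 and 19 hepatocyte genes at -0.41. Calls of the 10 genes that these mice touch are given with and without them. As for the tissue itself, 16 of the 17 mature neutrophil markers on the array, 7 of 8 B cell genes and 8 of 8 T cell genes passed the filters.

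**Figure D1:**
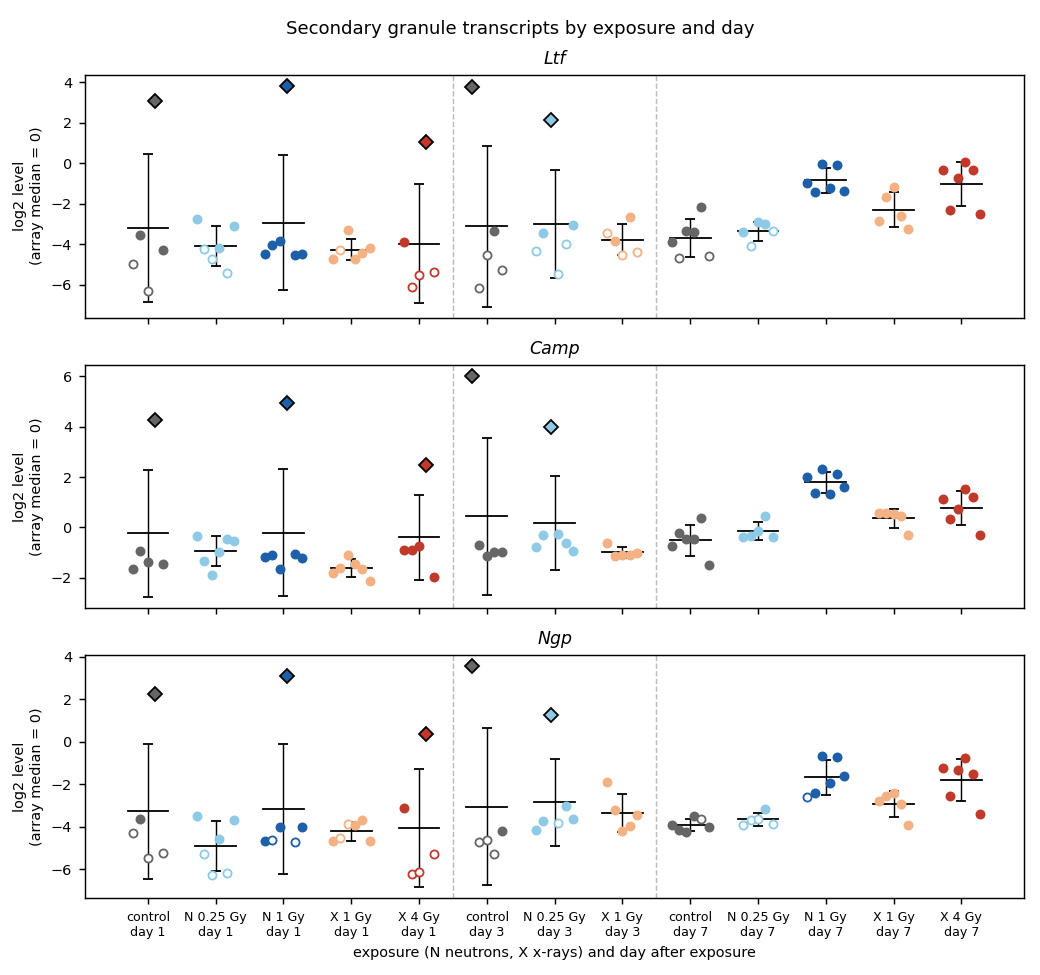
Levels of Ltf, Camp and Ngp (log2 intensity relative to the array median) in each mouse of the 13 groups; points are mice, bars are mean ± SD, diamonds are the 5 mice that stood apart, and open circles are spots not well above background. At day 7 the 6 mice given 1 Gy neutrons sit between 1.32 and 2.30 for Camp, above all 6 controls.

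After 1 Gy neutrons, 3 of the 7 genes tested were higher than in the controls at day 7: Camp, Ltf and Lcn2. The background in this comparison was high, since 38.4% of all genes were called (25.1% as higher), and 65.4% of those calls were higher, against 49.1% after quantile normalization, 39.4% after normexp background correction and 0.337% with spike-in centring. Camp, a precursor from which proteases release the active peptide, stood between -1.499 and 0.37 in the 6 controls (median -0.47) and between 1.32 and 2.30 in the 6 mice given neutrons (median 1.81). No irradiated mouse overlapped a control. The difference was 2.30 ± 0.29 (SE), or 4.92-fold, with an adjusted p of 1.78e-05 by limma, and a second Camp probe gave 2.21. Ltf ran from -4.72 to -2.17 in the controls (median -3.68, 2 of them not well above background) and from -1.41 to -0.06 after neutrons (median -1.11). This was 2.84 ± 0.42 higher, or 7.16-fold (adjusted p = 6.75e-05 by limma). Ngp, tested without the filters, ran from -4.27 to -3.52 in the controls and from -2.604 to -0.68 after neutrons, with 1 mouse in each group not well above background. It was 2.26 ± 0.34 higher (adjusted p = 7.83e-05 by limma, where 39.2% of the 31131 genes were called). The background level itself was higher on the neutron arrays, where the dimmest detected probe lay at -5.06 to -4.22 against -7.01 to -6.00 in the controls. Its part in the sizes of the Ngp and Ltf differences was not tested. The median difference of the 7 genes tested was 1.34, against 0.31 over all genes tested.

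The arrays of 1 Gy neutrons at day 7 were dim, with 40.2% to 50.3% of probes well above background against 54.3% to 63.9% in their controls. With the arrays centred on spike-in RNA in place of the median probe, the median of all genes moved by -2.10 and no member was called, Camp being 0.20 and Lcn2 -0.38. With normexp background correction Camp was 0.90 and only Ltf was called. One mouse of this group shared a scan date with the 6 controls, and in it Camp was 2.52, Ltf 2.72, Ngp 1.32 and Lcn2 1.78 above their mean. With scan date as a block none of the 3 was called, and Camp stood at 2.52 there. Genes of other cells were also called in this group, where 38.4% of all genes were called and 25.1% as higher. Of the lists, 9 of 10 red cell precursor genes and 5 of 16 mature neutrophil markers were called higher and 6 of 7 B cell genes lower. The mean level of the red cell list ran from 5.31 to 6.43 against 3.12 to 3.98 in the controls, and the mature neutrophil list from 2.44 to 3.34 against 1.87 to 2.74. Their part in the rise of the granule transcripts was not tested.

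After 4 Gy of x-rays, Ltf and Lcn2 were called higher at day 7, 2 of the 7 genes where 17.6% of all genes were called (9.06% as higher). Ltf stood between -2.51 and 0.04 (median -0.53) and was 2.67 ± 0.53 above the controls, or 6.36-fold (adjusted p = 0.00183 by limma). The groups overlapped, because 2 of the 6 irradiated mice, at -2.33 and -2.51, lay below the highest control. The call was lost with normexp background correction, at 0.90, and in one fit of all 13 groups. Camp, between -0.29 and 1.54 (median 0.92), was 1.28 ± 0.34 above the controls and missed the threshold of 0.001 on the unadjusted p (adjusted p = 0.0105 by limma), but was called when control mouse 5 or x-ray mouse 6 was left out. Ngp, between -3.38 and -0.79 with no overlap with the controls, was 2.12 ± 0.39 higher without the filters (adjusted p = 0.00302 by limma), a setting in which 9.1% of genes were called. The day 7 controls and the mice given 4 Gy shared no scan date, so that scan date and exposure cannot be told apart here. Genes of other cells were called in this group too. All 7 B cell genes tested were lower, and 4 of 10 red cell precursor, 4 of 7 NK cell and 3 of 7 monocyte genes higher. Of 16 mature neutrophil markers, 2 were called higher and 1 lower, where 9.06% of all genes were called higher. The mean level of the red cell list ran from 4.14 to 5.15 and that of the mature neutrophil list from 2.34 to 3.35, and their part in the rise of Ltf and Lcn2 was not tested.

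At 1 Gy of x-rays the same 3 transcripts lay between the controls and the higher exposures at day 7 without being called, and 0 of the 7 genes tested passed (2 with an unadjusted p below 0.05), where 4% of all genes did. Camp was 0.56, 0.59, 0.53, 0.45 and -0.31 in the 5 mice, a difference of 0.87 ± 0.30 from the controls (adjusted p = 0.0927 by limma). Ltf differed by 1.39 ± 0.49 (adjusted p = 0.0998 by limma) and Ngp by 1.00 ± 0.27 (adjusted p = 0.0947 by limma, without the filters, where 1.33% of genes were called). At 0.25 Gy of neutrons and day 7, where 0.0276% of all genes were called, Camp, Ltf and Ngp differed from the controls by 0.35, 0.33 and 0.27 and 0 of the 7 genes tested were called, with 0 at an unadjusted p below 0.05. The comparisons at day 7 share their 6 controls.

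At days 1 and 3 none of Ltf, Camp and Ngp was called in any group. At day 1, Camp was -1.66, -0.96, -1.37, 4.27 and -1.47 in the 5 controls, while the mice given 1 Gy neutrons had a lowest level of -1.64, a median of -1.14 and a highest of 4.96. After 4 Gy of x-rays it was -0.88, -0.91, -0.72, 2.48 and -1.97. In each of these 3 groups 1 mouse, among the 5 described above, carried the spread, and with it the standard errors of the Camp differences were 1.31 for 1 Gy neutrons and 1.11 for 4 Gy of x-rays. Without these mice the Camp differences were 0.13 ± 0.21 after 1 Gy neutrons and 0.24 ± 0.31 after 4 Gy of x-rays, neither called.

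**Figure D2:**
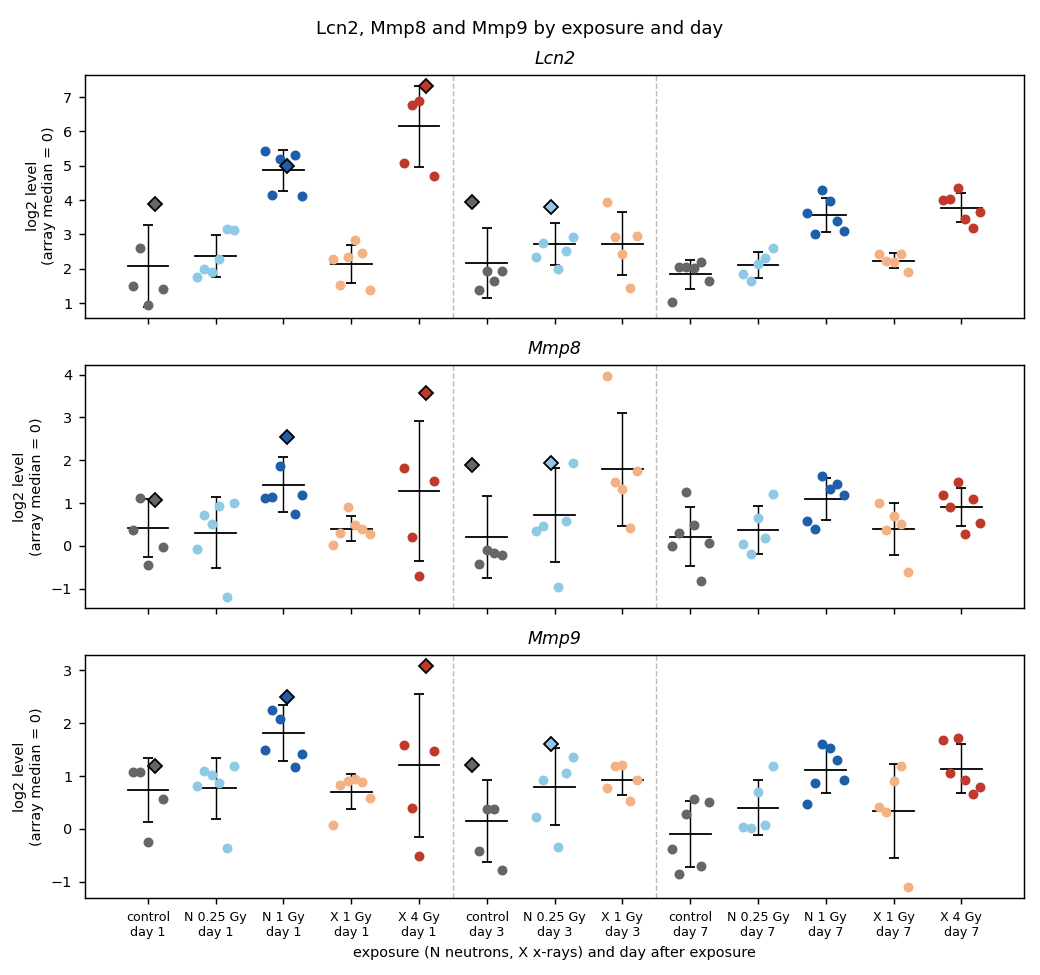
Levels of Lcn2, Mmp8 and Mmp9 (log2 intensity relative to the array median) in each mouse of the 13 groups; points are mice, bars are mean ± SD, and diamonds are the 5 mice that stood apart. Lcn2 at day 1 sits between 4.12 and 5.44 after 1 Gy neutrons and between 4.71 and 7.34 after 4 Gy of x-rays, above the highest control at 3.898.

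Lcn2 was the member called in the most comparisons with controls. At day 1 it was 1.51, 2.603, 0.96, 3.898 and 1.41 in the 5 controls and ran from 4.12 to 5.44 (median 5.10) in the 6 mice given 1 Gy neutrons. The groups did not overlap, and the difference was 2.79 ± 0.49, or 6.93-fold (adjusted p = 0.00139 by limma). It was the 1 call among the 7 genes tested, where 17.5% of all genes were called. After 4 Gy of x-rays it was 5.08, 6.77, 6.88, 7.34 and 4.71, all above the controls, a difference of 4.08 ± 0.62 or 16.9-fold (adjusted p = 0.00023 by limma). It was 1 of 2 calls there, beside Elane, where 35.1% of all genes were called. The 4 Gy mice and the controls of day 1 shared no scan date, so that scan date and exposure cannot be told apart for either call, while within the date that 4 neutron mice shared with the controls Lcn2 differed by 2.87. Without the mice that stood apart, the differences were 3.22 after neutrons and 4.24 after x-rays, and both were called. At day 7 it ran from 1.04 to 2.21 in the controls (median 2.03), from 3.00 to 4.29 after 1 Gy neutrons (median 3.51) and from 3.19 to 4.34 after 4 Gy of x-rays (median 3.83). It was 1.73 ± 0.26 higher after neutrons (adjusted p = 8.59e-05 by limma) and 1.95 ± 0.24 higher after x-rays (adjusted p = 6.88e-05 by limma), again without overlap.

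Lcn2 was not called after 0.25 Gy neutrons or 1 Gy of x-rays at any day. Its differences there ran from 0.06, after 1 Gy of x-rays at day 1, to 0.56, after 1 Gy of x-rays at day 3. Control mouse 4 of day 1, control mouse 1 of day 3 and the neutron mouse of day 3 that stood apart weighed on these values. Without them the differences at day 1 were 0.75 after 0.25 Gy neutrons and 0.52 after 1 Gy of x-rays, against 0.30 and 0.06 with them, and at day 3 they were 0.78 and 1.01, against 0.55 and 0.56, still not called. In those comparisons 0 of the 7 genes tested were called, against 7.65% of all genes after 1 Gy of x-rays at day 1 and 2% at day 3, and, for 0.25 Gy neutrons, 0.00921% at day 1 and 1.17% at day 3. In the same order 1, 1, 1 and 0 of the 7 had an unadjusted p below 0.05, and the random variance test also called 0 in each comparison in which limma called 0.

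Hepatocyte transcripts varied widely between mice and were measured beside Lcn2. The mean level of 19 hepatocyte genes ran from -0.79 to 6.44 in the controls of day 1, from -0.62 to 7.76 after 1 Gy neutrons and from 7.42 to 8.38 after 4 Gy of x-rays. At day 7 it ran from -4.23 to -1.86 in the controls, from -2.58 to 2.99 after 1 Gy neutrons and from -4.24 to 6.96 after 4 Gy of x-rays. The mouse with -0.62 after 1 Gy neutrons at day 1 had Lcn2 at 5.00, above each of the 5 controls, but it was mouse 4, which also stood apart, and the other 5 mice of that group, from 6.46 to 7.76, had more hepatocyte RNA than any control. The 3 mice given 4 Gy of x-rays whose hepatocyte level lay at -4.24, -3.40 and -3.16 at day 7, no higher than in the controls, had Lcn2 at 4.02, 4.34 and 3.19, where the highest control was 2.21. All 5 mice given 4 Gy of x-rays also had more hepatocyte RNA at day 1 than any control of that day. The part of hepatocyte RNA in the Lcn2 levels was not tested.

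**Figure D3:**
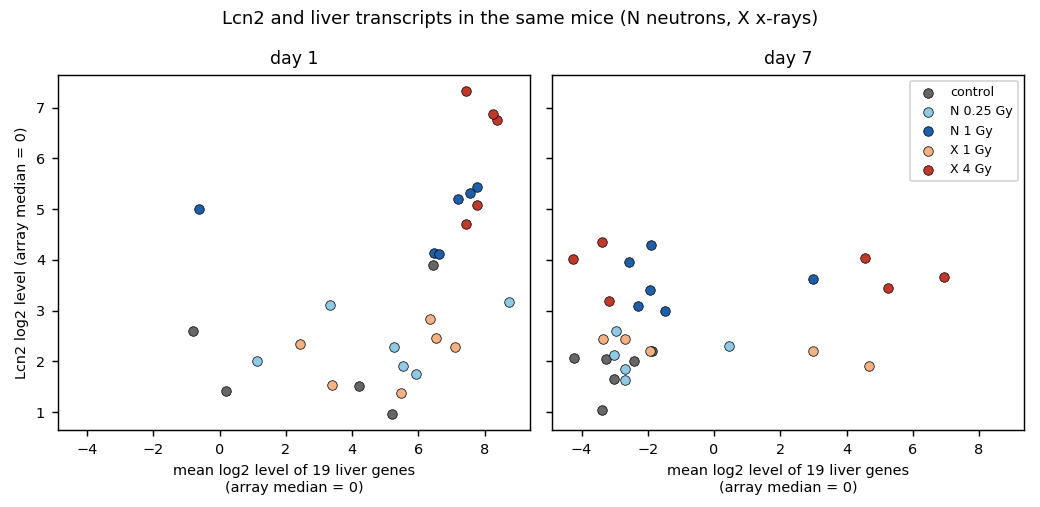
Level of Lcn2 against the mean level of 19 hepatocyte genes (both log2 relative to the array median) in each mouse at days 1 and 7, coloured by exposure. At day 1 the 5 mice given 4 Gy of x-rays lie to the right of all controls, between 7.42 and 8.38, and at day 7 the 6 mice of that exposure spread from -4.24 to 6.96.

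The metalloproteinases Mmp8 and Mmp9 were called in none of the comparisons with controls. At day 1 Mmp8, the neutrophil collagenase, ran from 0.75 to 2.53 after 1 Gy neutrons (median 1.16) against 0.36, 1.12, -0.44, 1.08 and -0.02 in the controls, a difference of 1.01 ± 0.37 (adjusted p = 0.0400 by limma). After 1 Gy of x-rays at day 3 it was 3.97, 1.503, 1.32, 0.41 and 1.76 against 1.90, -0.42, -0.10, -0.17 and -0.20 in the controls, a difference of 1.59 ± 0.65 (adjusted p = 0.179 by limma). The control at 1.90 was mouse 1, which stood apart. Without it the difference was 2.02 ± 0.59, still not called (adjusted p = 0.0691 by limma). Mmp9, the gelatinase, ran at day 7 from -0.85 to 0.57 in the controls (median -0.05), from 0.48 to 1.60 after 1 Gy neutrons (median 1.11) and from 0.67 to 1.72 after 4 Gy of x-rays (median 0.99). Its differences of 1.21 ± 0.30 (adjusted p = 0.00311 by limma) and 1.24 ± 0.30 (adjusted p = 0.00601 by limma) missed the threshold on the unadjusted p. In the x-ray group all 6 mice were above all 6 controls. Leaving out control mouse 4, control mouse 6 or neutron mouse 1 made the neutron difference a call, and either of those 2 controls the x-ray difference.

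Of the primary granule transcripts, Elane was called in 1 comparison with controls, that of 4 Gy of x-rays at day 1. It ran from 2.38 to 3.93 in the controls of day 1 and was 4.47, 5.67, 6.38, 6.46 and 5.54 after 4 Gy of x-rays. The difference was 2.40 ± 0.40, or 5.29-fold (adjusted p = 0.000366 by limma), without overlap, and 2.31 without the mice that stood apart. The call was lost with normexp background correction, at 1.99, and in one fit of all 13 groups. Whether this probe reads Elane alone is in doubt, because over the 72 arrays it followed the probe of Aldh3a1, an aldehyde dehydrogenase, with r = 0.99, whereas between mice of a group its r with Mpo, Prtn3 and Ctsg ran from -0.34 to -0.09. Each Elane value is therefore the level of that probe. The 6 mice given 0.25 Gy neutrons, from 4.14 to 7.42 (median 5.42), also lay above every control of day 1, a difference of 2.30 ± 0.54 that was not called (adjusted p = 0.163 by limma). After 1 Gy neutrons it ran from 2.37 to 7.13 (median 5.64), overlapping the controls, with a difference of 2.09 ± 0.69 (adjusted p = 0.0267 by limma). Leaving out mouse 3 of that group, the lowest, made this difference a call. Elane also varied widely within groups. At day 7 the controls ran from 3.66 to 8.55 (median 7.71) and the mice given 4 Gy of x-rays from 4.48 to 6.16 (median 5.07), a difference of -1.58 ± 0.76 (adjusted p = 0.112 by limma).

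Its neighbour Prtn3 was at or near background in many mice. At day 7 it ran from -4.62 to -1.60 in the controls (median -3.99) and from -2.33 to -0.92 after 4 Gy of x-rays (median -1.52), where all 6 mice were well above background. Without the filters it was 2.08 ± 0.44 higher after 4 Gy of x-rays (adjusted p = 0.00673 by limma), with 1 control, at -1.60, inside the range of the irradiated mice. After 1 Gy neutrons at day 7, 5 of 6 mice were not well above background for Prtn3, and it was not called. Ctsg was called in no comparison with controls; its differences ran from -0.04 to 0.76, the highest after 0.25 Gy neutrons at day 1. Mpo was not called either. After 4 Gy of x-rays at day 1 it was well above background in 1 of 5 mice, at -1.996, the mouse that also stood apart for Camp, and its difference from the controls was -2.30 ± 0.88 (adjusted p = 0.0658 by limma, without the filters, where 17.3% of genes were called). In the neutron group of 1 Gy and day 1 its difference was -1.67 ± 0.49 (adjusted p = 0.0311 by limma, where 8.87% were called). Mpo was well above background in 3 of the 6 mice there, so that this size rests in part on readings near background. In the 6 mice given 1 Gy neutrons none was well above background for Mpo at day 7. Their readings, from -4.82 to -3.08, overlapped those of the controls, from -4.40 to -3.44, so that no size is given for that difference.

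**Figure D4:**
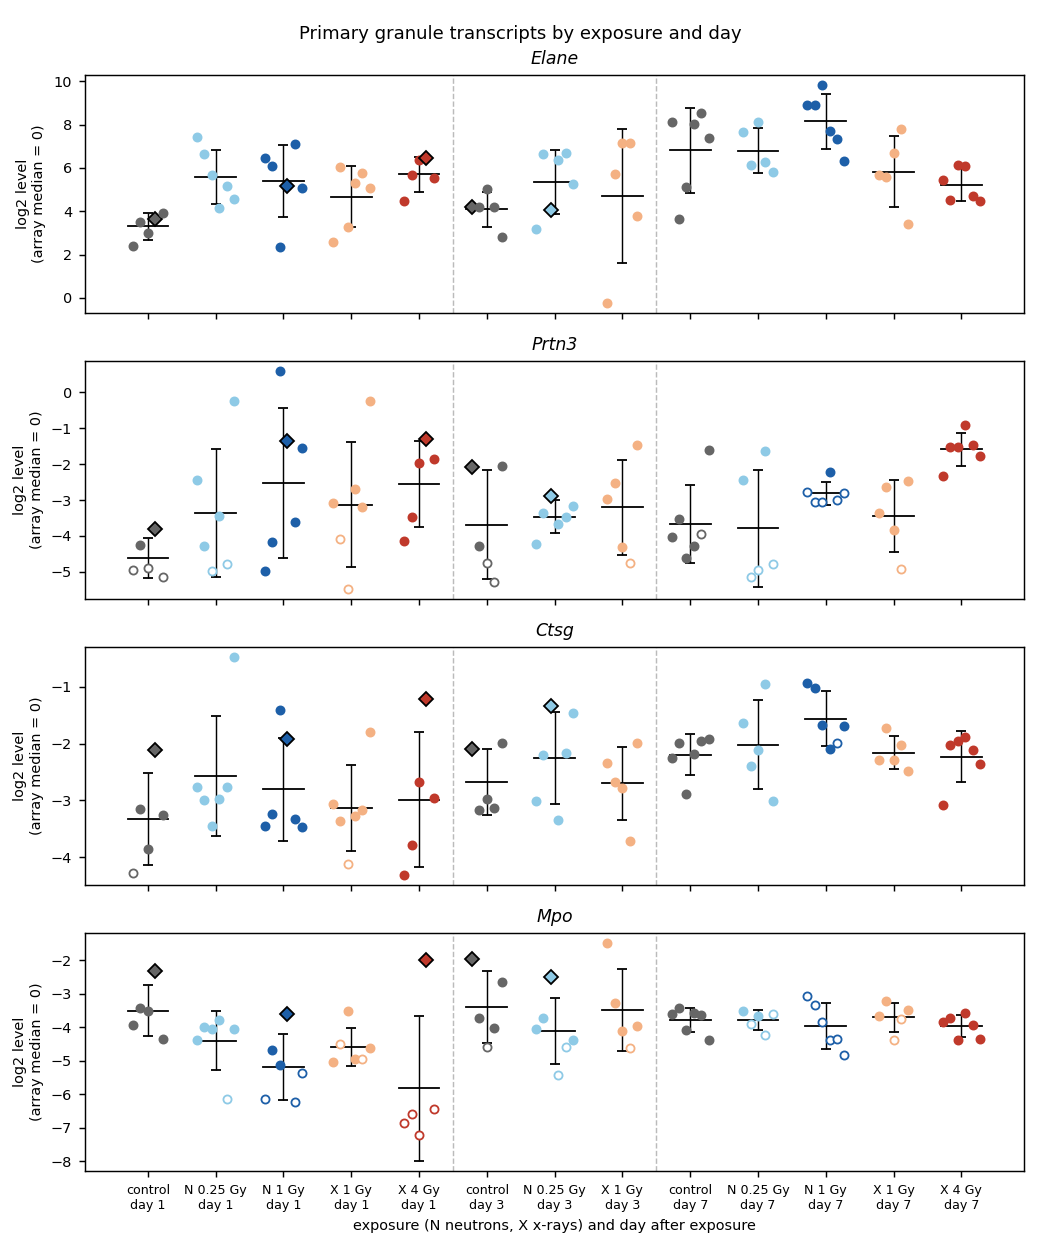
Levels of Elane, Prtn3, Ctsg and Mpo (log2 intensity relative to the array median) in each mouse of the 13 groups; points are mice, bars are mean ± SD, diamonds are the 5 mice that stood apart, and open circles are spots not well above background. Elane at day 1 lies between 4.47 and 6.46 after 4 Gy of x-rays, above the controls, whereas its day 7 controls spread from 3.66 to 8.55.

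Neutrons and x-rays were also compared directly. By the methods these exposures differed in apparatus and dose rate as well, and gamma rays came with the neutrons. Radiation quality cannot be told apart from these differences. At the same dose of 1 Gy and day 1, 2 of the 7 genes were called, both higher after neutrons, where 9.05% of all genes were called (1.33% as higher). Lcn2, between 1.38 and 2.84 after x-rays (median 2.31), was 2.73 ± 0.32 higher after neutrons, or 6.63-fold (adjusted p = 0.000461 by limma), and 2.70 without neutron mouse 4. The call was lost with scan date as a block, at 2.48, and with slide as a block, at 2.44 (adjusted p = 0.852 by limma). Mmp9, between 0.08 and 0.94 after x-rays (median 0.86) and between 1.18 and 2.49 after neutrons (median 1.78), was 1.11 ± 0.25 higher (adjusted p = 0.00919 by limma). The Mmp9 call was lost when neutron mouse 2, 3 or 4 or any 1 of the 6 x-ray mice was left out, and without neutron mouse 4, which stood apart, the difference was 0.97. Within the scan date shared by 2 neutron and 4 x-ray mice, Lcn2 differed by 2.48 and Mmp9 by 0.67. At day 7, 2 of the 7 were called at 1 Gy, again both higher after neutrons, where 23% of all genes were called (17.3% as higher). Camp was 1.43 ± 0.25 higher (adjusted p = 0.00107 by limma) and Lcn2 1.32 ± 0.25 (adjusted p = 0.00146 by limma), neither with overlap, and Ltf joined them without x-ray mouse 3. Both calls were lost with spike-in centring, which moved the median of all genes by -1.08, with normexp background correction, where Camp was 0.41 and Lcn2 -0.083, in one fit of all 13 groups, and with scan date or slide as a block. The Camp call was also lost with the replicate number as a block. Within the 2 scan dates that both groups share, Camp differed by 1.26 and 1.34 and Lcn2 by 0.91 and 1.22.

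Between 1 Gy neutrons and 4 Gy of x-rays, 0 of the 7 genes were called at day 1 (1 with an unadjusted p below 0.05), where 0.0552% of all genes were. For Lcn2 the mean after neutrons minus that after x-rays was -1.29 ± 0.49, which did not pass (adjusted p = 0.225 by limma). At day 7 Elane was called, as 1 of 7 genes where 41.9% of all genes were called. It was 2.93 ± 0.53 higher after neutrons (adjusted p = 0.000285 by limma), from 6.31 to 9.81 against 4.48 to 6.16, but was not called after quantile normalization, spike-in centring, another background correction or with scan date as a block. Within the scan date that 1 neutron mouse shared with the 6 x-ray mice the Elane probe differed by 1.08. Without the filters, where 48.4% of genes were called, Prtn3 was a call too, but it was well above background in 1 of 6 neutron mice and 6 of 6 x-ray mice. The background level itself was higher on the neutron arrays, where the dimmest detected probe lay at -5.06 to -4.22 against -7.97 to -6.89, so that no size is given for that difference. Ltf, Lcn2, Mmp8 and Mmp9 differed by 0.17, -0.22, 0.18 and -0.03 between these exposures at day 7. With spike-in centring, which moved the median of all genes by -2.32, these 4 and Ctsg were called lower after neutrons.

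The change of the effect from day 1 to day 7 was tested for 4 exposures, in mice that differ between the days. The effect of 4 Gy of x-rays on Elane turned from 2.40 to -1.58, a difference of -3.99 ± 0.95 (adjusted p = 0.00226 by limma), the 1 call among 7 genes where 22.4% of all genes were called. On neither day did the 4 Gy mice share a scan date with the controls. Scan date and exposure can therefore not be told apart in any change of the 4 Gy effect. The controls themselves stood at 3.30 ± 0.61 (SD, n = 5) at day 1 and 6.81 ± 1.96 (SD, n = 6) at day 7, against 5.70 ± 0.80 (SD, n = 5) and 5.23 ± 0.77 (SD, n = 6) after 4 Gy. The call was lost without control mouse 1 of day 1 or mouse 3 or 4 of 4 Gy of x-rays at day 1, with values from -4.62 to -3.64 over the single mice left out. Without the mice that stood apart it was -3.89 (adjusted p = 0.00568 by limma) and not called, while Lcn2, at -2.29, was called (adjusted p = 0.00323 by limma), as it was without control mouse 4 alone or mouse 5 of 4 Gy at day 1. The effect of 1 Gy neutrons on Camp differed between the days by 2.27 ± 1.38, which was not called (adjusted p = 0.176 by limma), and without the mice that stood apart by 2.17, which was (adjusted p = 8.65e-05 by limma). Of the 7 genes, 0 were called for 1 Gy neutrons, 1 Gy of x-rays or 0.25 Gy neutrons, where 28.7%, 8.68% and 1.32% of all genes were, and 0, 1 and 1 had an unadjusted p below 0.05.

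**Figure D5:**
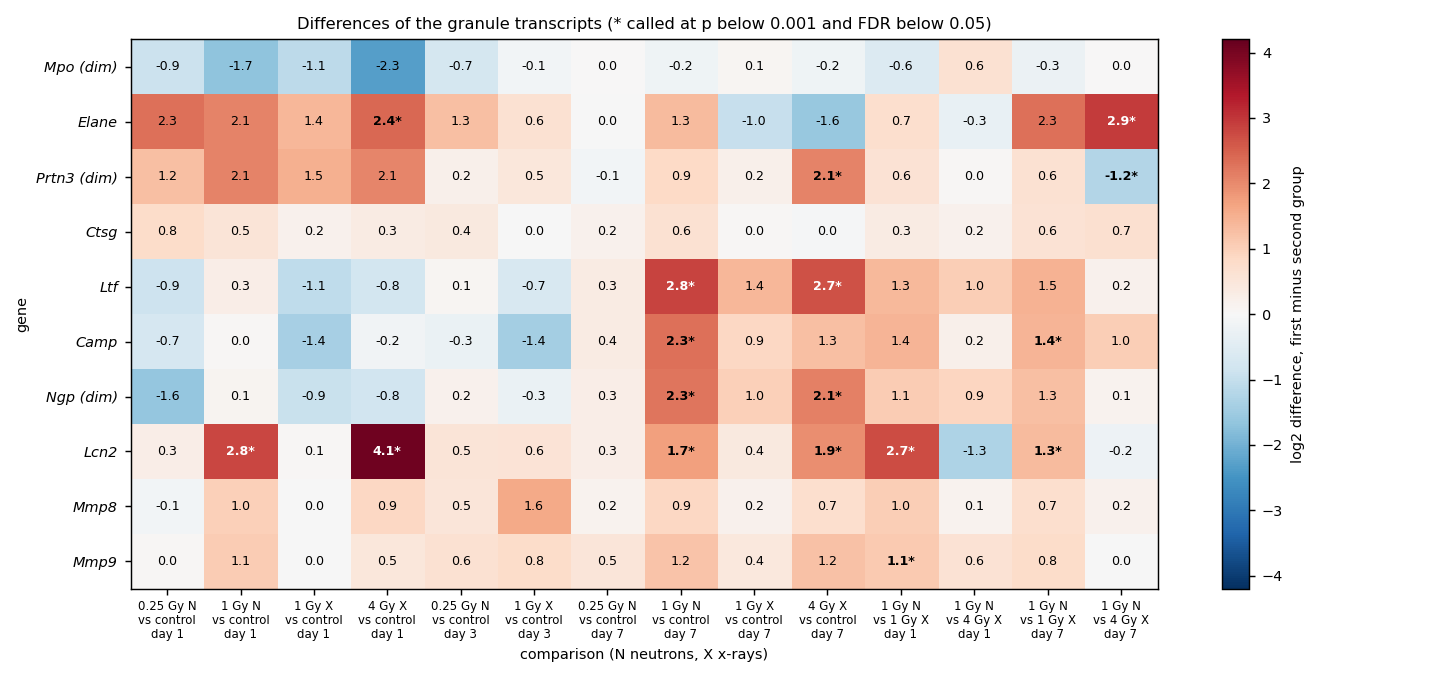
Differences in level (log2) of the 10 genes in each comparison; colour gives the size and direction, an asterisk marks a call, and genes marked dim failed the detection filter and are shown from the fit without filters. Lcn2 has the most calls, at days 1 and 7 after both 1 Gy neutrons and 4 Gy of x-rays. Against controls at day 7, Ltf and Ngp are called after both of these exposures and Camp after 1 Gy neutrons only.

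Deviations of single mice from their group means were compared among the 45 pairs of the 10 genes over the 67 arrays left without the mice that stood apart. In 12 pairs Pearson's r passed an adjusted p of 0.05 by permutation, 11 of them positive. Prtn3 and Ctsg had r = 0.77 (rho = 0.66), Mmp8 and Mmp9 r = 0.69 (rho = 0.72) and Ltf and Ngp r = 0.62 (rho = 0.58). The permutation p of each was 1e-05, the smallest that 100000 permutations can give, and without the 2 most extreme mice r was 0.69, 0.75 and 0.67. Within scan dates they were 0.80, 0.64 and 0.61. Camp followed Ngp with r = 0.50 (rho = 0.46, adjusted permutation p = 0.00396) and Ltf with r = 0.44 (rho = 0.39, adjusted permutation p = 0.00776). The Elane probe did not follow that of its neighbour Prtn3, with r = -0.25 (adjusted permutation p = 0.225), nor Ctsg, with r = -0.09. Over all 72 arrays, which share days, scan dates and exposures, the genes most like the mean of Ltf, Camp, Lcn2 and Mmp8 were Mapk13 (r = 0.79), Chil1 (0.77), Stfa1 (0.76), Cstdc5 (0.75) and Upp1 (0.74). Those most like the mean of Elane and Ctsg were Aldh3a1 (r = 0.93), Fcrl5 (0.91), Iqcd (0.90), Gm10318 (0.90) and Sox13 (0.90). Member by member, a reading chosen after the values were seen, the Elane probe was nearest to Aldh3a1, as given above. Prtn3 was nearest to Padi4, which citrullinates histones in neutrophils (r = 0.91), and Ngp to Ltf (r = 0.94). Mmp8 was nearest to LOC102642410 (r = 0.93), with the cytokine gene Il1b next (r = 0.92). These correlations are descriptions.

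Other genes of the granule programme were read from lists of 22 further granule genes (14 tested), 14 regulators (10 tested) and 15 protease inhibitors (9 tested). The share of all genes called against controls, beside which these counts stand, was 17.5% after 1 Gy neutrons and 35.1% after 4 Gy of x-rays at day 1, and 38.4% and 17.6% at day 7. Of the granule genes, 0 were called by limma after 1 Gy neutrons at either day (10 and 6 with an unadjusted p below 0.05 at days 1 and 7), with medians over the list of 0.88 at day 1 and 0.56 at day 7. After 4 Gy of x-rays 2 were called higher at day 1, haptoglobin (Hp, 3.68), which the liver also makes, and Padi4 (1.52). At day 7 after 4 Gy of x-rays 6 were, among them the chitinase-like Chil1 (2.38), Padi4 (2.27) and Hp (1.45). After 1 Gy of x-rays Cd177 was called lower at day 1, at -1.43.

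Among the regulators, Cebpa, which drives granulocyte commitment, was higher at day 1 after 1 Gy neutrons (2.02) and 4 Gy of x-rays (2.87), and at day 7 after 4 Gy of x-rays (1.36). Cebpb, of the same family, was higher in the 4 Gy group at day 1 (1.35), and Gfi1, a repressor needed for granulocyte maturation, after 1 Gy of x-rays (1.10). Hepatocyte genes were higher at day 1 too. Without the mice that stood apart, their median difference was 4.44 after 1 Gy neutrons and 5.24 after 4 Gy of x-rays. The part of hepatocyte RNA in the levels of the regulators was not tested. Myb, active in progenitors, was lower at day 1 after 1 Gy neutrons and 4 Gy of x-rays (-1.60 and -2.005). Cux1, a repressor of Ltf and other late granule genes in earlier cells, was higher at day 7 after 1 Gy neutrons (2.37).

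Among the inhibitors, Slpi, which inhibits elastase and cathepsin G, and Timp3, an inhibitor of metalloproteinases, were called higher at day 1 after 1 Gy neutrons (1.91 and 1.85) and 4 Gy of x-rays (2.11 and 2.45). Wfdc21 had the largest change of the list, 4.14 after 4 Gy of x-rays at day 1, and was 2.24 higher at day 7. Serpinb6a was higher at day 1 after 1 Gy neutrons (1.45) and 1 Gy of x-rays (1.29). Serpinb1a, which inhibits neutrophil serine proteases inside the cell, was lower after 4 Gy of x-rays on both days (-1.95 at day 1 and -0.97 at day 7) and after 1 Gy neutrons at day 7 (-1.72). The stefin genes Stfa1 and Stfa2, for inhibitors of cysteine proteases, were higher at day 7 after 1 Gy neutrons (2.18 and 1.27), and Stfa1 after 4 Gy of x-rays (2.37), where Timp2 was 1.53 higher. Of 16 mature neutrophil markers, 7 were called higher at day 1 after 1 Gy neutrons, with a median of 1.16, and 1 after 4 Gy of x-rays, with a median of 1.15. All 7 B cell genes tested were called lower in both of those groups.

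Some day 1 calls were lost or gained without the mice that stood apart, a setting that also left fewer mice to compare. Without them, Padi4 (1.52) and Serpinb1a (-2.15) after 4 Gy of x-rays, Slpi after 1 Gy neutrons (1.86) and Gfi1 after 1 Gy of x-rays (0.89) were not called, while Hp (3.34) and Wfdc21 (3.74) after 1 Gy neutrons, Timp3 after 1 Gy of x-rays (1.52) and, as lower, Chil3 after 4 Gy of x-rays (-2.95) were. The other day 1 calls named here, Cebpa, Cebpb and Myb among them, held. The mature neutrophil markers called higher then numbered 5 after 1 Gy neutrons and 2 after 4 Gy of x-rays, with 24.3% and 33.6% of all genes called, and all 7 B cell genes were again called lower in both groups.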

How the data were processed

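Blood RNA was hybridized to Agilent 4x44K version 2 mouse arrays and read with Feature Extraction 12.0.2, per the file headers. The deposited scanner intensity (gProcessedSignal, background-subtracted by that software) was taken as log2, spots flagged as non-uniform or population outliers were dropped, replicate spots were averaged, and values were set relative to the median detected probe of the array. As the methods did, probes not detected on over 25% of day 1 and 7 arrays, or changing at least 1.5-fold on under 20% of them, were left out, with the brightest probe kept per gene. All main values, in every group, come from the scanner intensity. The authors' series table was deposited as log2 values they had normalized. It was used only beside the main values, for 0.25 Gy neutrons against controls at day 1 (5 arrays of each group). It was not used further, since 60 of its 72 columns followed another array than their own, 21 of them one of another group. Groups rest on the labels of the per-array files. Groups were compared with limma 3.58.1 in R 4.3.3, fitted to the groups of each comparison, with Benjamini-Hochberg adjustment, and the script was tested on simulated data. The 10 members, the gene lists and the 2 alternatives on slides and on the mice that stood apart were chosen with earlier results of these data known. Genes named beside the members are at most the 3 of each list with the largest called change per comparison and direction, and the 5 genes most correlated with the mean of the members of a granule class. Positions and promoters are of RefSeq GRCm38.p6. Correlations used 100000 permutations. The number of mice limits the precision.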

Additional observations from a re-analysis of the deposited data

Results flagged for a closer look

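Single mice far from the rest of their group were looked for in 130 combinations of member and group. This gave 25, where 5% of the combinations is 6.5. Several members move together between mice, so the combinations are not independent and the 2 numbers give no test of chance. Of the 25, 15 lay in the 5 mice that stood apart, which were themselves chosen for their high Camp. In control mouse 1 of day 3 the high levels were Ltf 3.75, Camp 6.02, Ngp 3.55, Lcn2 3.95 and Mmp8 1.90. In control mouse 4 of day 1 they were Camp 4.27 and Ngp 2.25, and in mouse 3 of 0.25 Gy neutrons at day 3 Ltf 2.15, Camp 3.98 and Ngp 1.24. In mouse 4 of 1 Gy neutrons at day 1 they were Ltf 3.83, Camp 4.96 and Ngp 3.07, and in mouse 4 of 4 Gy of x-rays at day 1 Camp 2.48 and Mpo -1.996. The other 10 lay in other mice. The high ones were Mpo at -3.53 after 1 Gy of x-rays at day 1, Prtn3 at -1.60 in the controls and -2.23 after 1 Gy neutrons at day 7, Ctsg at -0.48 after 0.25 Gy neutrons at day 1, and Camp at 0.47 after 0.25 Gy neutrons at day 7 and -0.61 after 1 Gy of x-rays at day 3. The low ones were Mpo at -6.14 and Mmp9 at -0.37 after 0.25 Gy neutrons at day 1, Ctsg at -2.89 in the controls of day 7 and Camp at -0.31 after 1 Gy of x-rays at day 7. The effect of 4 Gy of x-rays on Elane differed between day 7 and day 1 by -3.99, by limma's test of the difference itself (adjusted p = 0.00226). Scan date and exposure cannot be told apart in it.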

How the results depend on the processing

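Of 3038 alternative values, 2866 kept their direction and side of the threshold or moved by less than the limit, 52 lost a call, 26 gained one, 89 moved and 5 turned in sign. Only 14 of the 126 differences tested were calls, so that most of the values that kept their side stayed uncalled. Lcn2 was called in every alternative run at day 1 after 1 Gy neutrons (2.51 to 3.25 in 22) and 4 Gy of x-rays (3.58 to 4.53 in 21) and at day 7 after 4 Gy of x-rays (1.67 to 2.17 in 21). Camp was called in 18 of 22 alternatives at day 7 after 1 Gy neutrons, Ltf in 19 of 22 there and in 19 of 21 after 4 Gy of x-rays. In each case 12 of the alternatives left out 1 mouse and kept the call. The 4, 3 and 2 losses all fell among the other settings. Numbers of the members called follow. With spike-in centring there were 2 after 1 Gy neutrons at day 1, 0 at day 7, 1 for neutrons against x-rays at 1 Gy and day 1 and 0 at day 7, 5 for 1 Gy neutrons against 4 Gy of x-rays at day 7, and 2 and 0 for the change of the effect of 1 Gy neutrons and of 4 Gy of x-rays between the days. It turned Lcn2 after 1 Gy neutrons at day 7 to -0.38 and, against 4 Gy of x-rays, Ctsg to -1.65, Ltf to -2.15 and Mmp8 to -2.14. With normexp background correction there was 1 after 4 Gy of x-rays at day 1, 1 at day 7, 1 after 1 Gy neutrons at day 7, 1 between the 2 exposures at 1 Gy and day 1, and 0 for 1 Gy neutrons against 4 Gy of x-rays at day 7, and it turned Lcn2 between the exposures at 1 Gy and day 7 to -0.083. Centring on the 75th percentile and quantile normalization each left 1 between the exposures at 1 Gy and day 1, and quantile normalization 0 for 1 Gy neutrons against 4 Gy of x-rays at day 7. Without the filters there were 4 after 4 Gy of x-rays at day 7 and 2 for 1 Gy neutrons against 4 Gy of x-rays, where Prtn3 joined Elane. One fit of all 13 groups left 1 after 4 Gy of x-rays at day 1 and day 7, 1 after 1 Gy neutrons at day 7, and 1 and 0 between the exposures at 1 Gy at days 1 and 7. With scan date as a block there were 0 after 1 Gy neutrons at day 7, 0 between the exposures at 1 Gy at both days and 0 for 1 Gy neutrons against 4 Gy of x-rays at day 7. With slide as a block, chosen after seeing the data, there were 2 after 1 Gy neutrons at day 1, 0 between the exposures at 1 Gy at both days and 1 for 1 Gy neutrons against 4 Gy of x-rays at day 1. Without the 5 mice that stood apart, also chosen after seeing the data, there was 1 between the exposures at 1 Gy and day 1 and 1 for the change of the effect of 1 Gy neutrons. The causes were not tested. Leaving out 1 mouse at a time gave 1 to 2 after 1 Gy neutrons at day 1, 2 to 2 after 4 Gy of x-rays at day 1, 3 to 4 after 1 Gy neutrons and 2 to 3 after 4 Gy of x-rays at day 7, 1 to 2 and 2 to 3 between the exposures at 1 Gy at days 1 and 7, 1 to 1 for 1 Gy neutrons against 4 Gy of x-rays at day 7, 0 to 2 for the change of the effect of 4 Gy of x-rays, and 0 to 0 elsewhere. The replicate numbers did not pair the mice, since r between the deviations of same-numbered mice ran from -0.55 to 0.64 over 14 comparisons and was above 0.1 for every pair in 0 of them (above 0 for every pair in 1, that of 1 Gy of x-rays against controls at day 7, from 0.06 to 0.42), and with the replicate number as a block there was 1 call, Mmp8, after 1 Gy of x-rays at day 3 and 1 between the exposures at 1 Gy and day 7, with no other count moved by over 1.5 times. The dim arrays of 1 Gy neutrons at day 7 limit what can be said there of Mpo and Prtn3.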
